A study of Mus musculus with 6 samples.

Results

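The 46 genes described here encode fibroblast growth factor (FGF) ligands, their receptors and coreceptors, the inhibitors that FGF signalling switches on, and its ETS-family transcription factors. They were taken by gene symbol from 19946 genes measured on 6 arrays. The chosen symbols were Fgf, Fgfr, Spry, Spred and Flrt followed by a number or letter, together with Dusp6, Etv1, Etv4, Etv5, Il17rd, Frs3, Klb and Kl. Fgfr1op2, named for a fusion partner of Fgfr1, met the rule by name only and is counted apart where roles are described. The docking adaptor gene Frs2 was part of the rule, and no feature carried its symbol alone, so it was not analysed here.

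RNA came from whole lungs of mouse embryos at E14.5. Control embryos (3 arrays) carried Shh-Cre, a Cre recombinase under the control of the Shh gene, which is expressed in lung endoderm. In addition to Shh-Cre, mutant embryos (3 arrays) had floxed alleles of Foxp1, Foxp2 and Foxp4, which encode forkhead factors. Their sample labels list Foxp1flox/flox in 2 places and leave out Foxp2, while the series title has Foxp1/2/4, which was followed here. The design text, however, calls the mutants DKO, a usual short form for a double knockout, so how many of these genes were deleted is not settled by the labels. Strains were mixed C57BL/6 and 129X1 in all embryos, and the controls carry the Cre too. The study asked what these factors do for the identity of the lung endoderm. Shh-Cre acts in the epithelium and not in the mesenchyme, so mesenchymal cells of the mutant lungs keep the floxed genes, and whole-lung RNA mixes both.

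FGF signalling drives branching of the embryonic lung. Fgf10 from the distal mesenchyme acts on the Fgfr2 receptor of the epithelial tips, and epithelial and mesothelial Fgf9 acts on the mesenchyme. Activated receptors signal through RAS and the MAP kinase ERK, which switch on the ETS factors Etv4 and Etv5 and feedback inhibitors such as the Sprouty proteins and Dusp6. The level of those targets is therefore commonly read as an index of FGF signalling.

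Foxp2 and Foxp4 fell in the mutant lungs, with log2 differences of -0.95 and -0.64 and limma adjusted p of 4.75e-05 and 0.00591. Foxp1 (-0.31) did not pass (adjusted p = 0.0661), and whole-lung RNA is a limited check of a deletion in the epithelium. Over all genes the arrays correlated at 0.9975 to 0.998 within controls and at 0.9937 to 0.9956 within mutants. Across groups they correlated at 0.988 to 0.991. The mutants varied more, with a median SD per FGF gene of 0.12 against 0.07 in controls, and the limma fit pools both. Several lists of tissue markers differed between the groups. Over all genes, 3.84% were higher and 3.83% lower at a limma adjusted p under 0.05. Among genes with a control mean above that of the median gene, 10.1% passed in either direction. In a list of 12 pan-epithelial genes, 7 were lower and 0 higher (median -0.39). Its mean log2 level lay between 9.35 and 9.38 in controls and between 8.70 and 9.02 in mutants. Epcam, a marker of all epithelia, differed by -0.33 and passed (adjusted p = 0.0384), while the epithelial cadherin Cdh1 (-0.19) did not. In a list of 10 lung epithelial genes, 8 were lower (median -0.91), and this list shares Etv5 with the FGF set. Of 6 stratified epithelial and oesophageal genes, all dimmer than the median gene, 2 were higher (33.3%, against 5.24% of such genes in either direction). These were Dsc3 (1.00) and Trp63 (0.34), while Krt14 and Krt15 lay below the controls and did not pass. The mean log2 level of this list was 6.125 to 6.217 in controls and 6.293 to 6.408 in mutants. Of 8 smooth muscle genes, 5 were lower and 1 higher. Of 5 red cell genes 3 were lower (median -0.43), at a mean log2 level of 9.63 to 10.19 in controls and 9.14 to 9.38 in mutants. Of 6 leukocyte genes 1 was higher, Csf1r (0.43), at a mean level of 7.25 to 7.35 in controls and 7.46 to 7.64 in mutants. The part of these cells in the results below was not tested. The 9 lung mesenchyme markers stood at a median of 0.01, with 1 lower. The single calls in the mesenchyme and leukocyte lists are 11.1% and 16.7% of them, against 7.66% of all genes, and each share rests on 1 gene. All 6 leukocyte genes read higher on average, by 0.105 to 0.429. Of these, 3 lay wholly above the controls, as 13.4% of all genes did. Heart muscle genes separated mutant 1, at a median of 0.82 above the control mean, from mutants 2 and 3, both at -0.20. RMA values have no zero, and no marker can be called absent from them.

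Of the 46 FGF genes, 18 differed between mutant and control lungs at a limma adjusted p under 0.05, against 7.66% of all genes tested. Of these, 11 were higher (3.84% of all genes were) and 7 lower (3.83% of all genes were). Receptors and feedback inhibitors moved in opposite directions. Of the 5 receptor genes 4 were lower and 0 higher, and of the 9 feedback inhibitor genes 6 were higher and 0 lower. The largest fall was that of Fgfr4 and the largest rise that of Etv4. The median difference over the set was -0.01, as it was over all genes, and the median size of the difference was 0.21 against 0.08 for all genes. The 3 mutant values lay wholly to one side of the control values for 25 of the 46 genes, against 25.9% of all genes. They lay above for 15 and below for 10, against 13.4% and 12.6%. Of the genes past the threshold, 10 changed at least 1.5-fold (2.75% of all genes did) and 5 at least 2-fold (0.958% did).

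**Figure D1:**
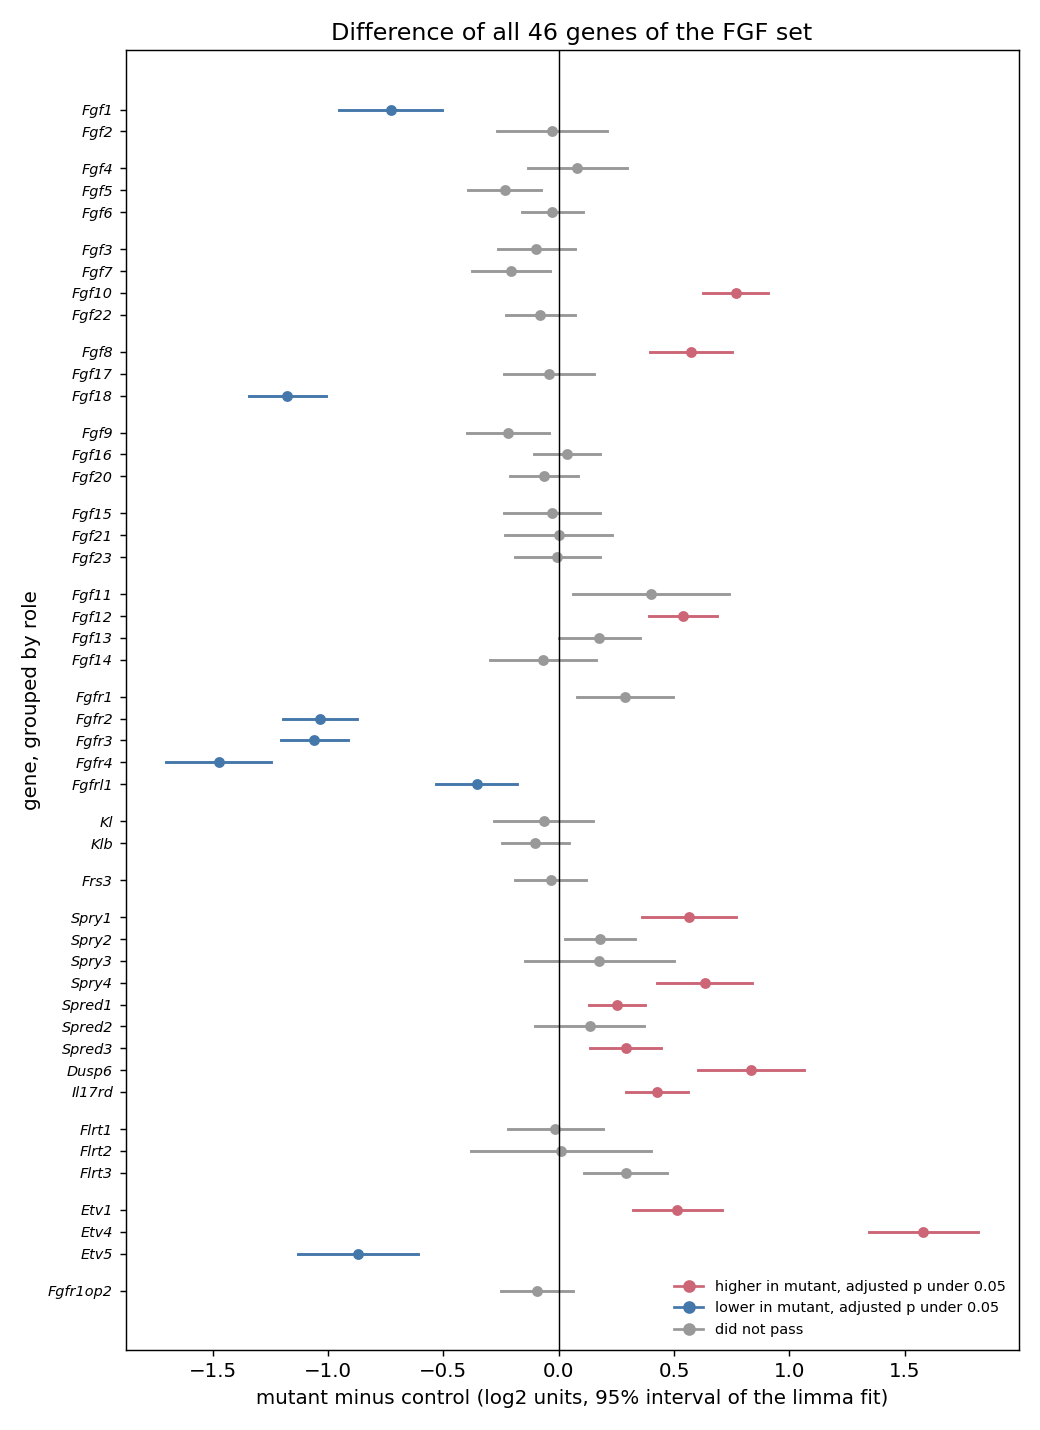
Mutant minus control difference of all 46 genes in log2 units, grouped by role, with points for the limma estimate and lines for its 95% interval (3 arrays per group). The 11 higher genes include 6 feedback inhibitors and 2 ETS factors, and the 7 lower genes include Fgfr2, Fgfr3 and Fgfr4.

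The calls were also counted by how brightly a gene read. Of the 25 FGF genes whose control mean lay above that of the median gene, 15 passed, against 10.1% of all such genes. Of the 21 dimmer ones 3 passed, against 5.24%. The dimmer genes included 16 of the 22 genes named Fgf with a number, both klotho genes, Spred3, Spry3 and Etv4. Among those 16 are 4 FGF homologous factors, which stay inside the cell and are not secreted ligands.

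Receptor genes fell in 4 of 5 cases, against 3.83% lower among all genes. Fgfr2, the receptor that receives Fgf10 and Fgf7 in lung epithelium, read 10.86, 10.91 and 10.83 across controls 1 to 3 and 9.70, 9.91 and 9.88 across mutants 1 to 3. Every mutant value was at least 0.92 below the lowest control. Its difference was -1.03 ± 0.07 (SE, n = 3 per group), a 2.05-fold lower level, with a limma adjusted p of 0.000122. The epithelial and mesenchymal splice forms of Fgfr2 were not separated, since each gene is represented by 1 summarised value.

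Fgfr3, which in the lung acts with Fgfr4 in the later formation of alveoli, read 9.13, 9.20 and 9.13 across the controls and 8.07, 8.02 and 8.19 across the mutants. The groups were far apart for their spread, with SDs of 0.04 and 0.09. The difference was -1.06 ± 0.06 or 2.08-fold (adjusted p = 7.27e-05). Fgfr4 read 8.78, 9.04 and 9.05 across the controls and 7.45, 7.37 and 7.64 across the mutants. This was the largest fall of the set, at -1.47 ± 0.10 or 2.78-fold (adjusted p = 0.000119). Leaving out each array in turn kept these 3 receptors past the threshold, with differences between -0.97 and -1.07 for Fgfr2, -1.02 and -1.11 for Fgfr3 and -1.41 and -1.56 for Fgfr4.

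Fgfrl1, a receptor-like protein that lacks the kinase domain, was lower by a smaller step. It read 9.52, 9.42 and 9.35 across the controls and 9.06, 8.97 and 9.19 across the mutants. The groups did not overlap, and the difference was -0.35 ± 0.08 (adjusted p = 0.0291). Its call ended without control 1, control 2, control 3 or mutant 1 (adjusted p from 0.0616 to 0.118).

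Fgfr1, the main FGF receptor of mesenchyme, was the receptor gene that did not fall. It read 9.90, 9.85 and 9.85 across the controls and 10.18, 9.96 and 10.33 across the mutants. All mutant values were above the controls, but mutant 2 was close to them. The difference of 0.29 (95% interval 0.08 to 0.50) did not pass (adjusted p = 0.11). Without mutant 2, the lowest mutant value, it was 0.38 and passed (adjusted p = 0.0128), a choice of array that favours a rise. The change of Fgfr1 relative to Fgfr2 within each array was 1.32. An exact two-sided permutation test over the 6 arrays gave p = 0.1 for it, the smallest that 3 against 3 allows, also after adjustment over the 4 gene pairs compared.

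The falls of Fgfr2, Fgfr3 and Fgfr4 stand beside those of epithelial markers. Each exceeded the pan-epithelial median of -0.39. Single pan-epithelial genes ran from -1.15 (Esrp2) to -0.01 (Cldn7), which takes in Fgfr2 and Fgfr3 but not Fgfr4. The lung epithelial list had a median of -0.91, close to Fgfr2 and Fgfr3. Its single genes ran from -5.58 (Sftpc) to -0.01 (Id2), which takes in Fgfr4 too. In mutants 1, 2 and 3 the pan-epithelial median stood at -0.56, -0.38 and -0.27 from the control mean. The lung epithelial median stood at -0.98, -0.96 and -1.12. Whole-lung RNA cannot tell fewer cells of a type from less RNA per cell, and the part of the epithelial markers in the receptor result was not tested. Smooth muscle genes fell as well (median -1.05), and their part in the result was not tested either.

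**Figure D2:**
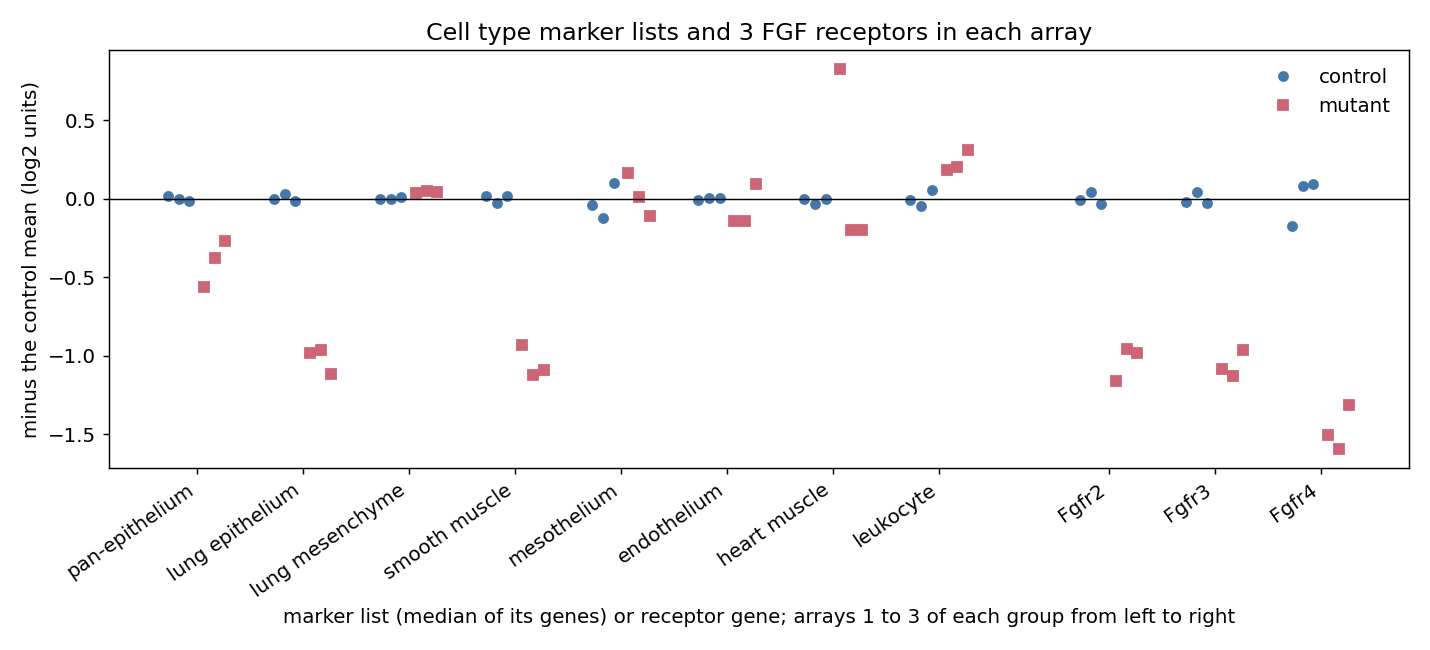
Log2 values of each array minus the control mean, as the median of 8 marker lists and for 3 receptor genes, with circles for controls and squares for mutants 1 to 3 from left to right. The receptors and the pan-epithelial, lung epithelial and smooth muscle lists are low in all 3 mutants. The median of the mesenchyme markers stays within 0.05 of the control mean, and that of heart muscle genes is high in mutant 1.

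The ETS factors split. Etv4 read 7.38, 7.03 and 7.12 across the controls and 8.62, 8.78 and 8.87 across the mutants. The groups were more than 1 log2 unit apart, and the difference of 1.58 ± 0.10, or 2.99-fold, was the largest rise of the set (adjusted p = 0.000108). Etv5, its close relative, which is likewise induced by FGF in the distal epithelial tips, went down. It read 10.72, 10.75 and 10.65 across the controls and 10.00, 9.95 and 9.56 across the mutants, so that it fell by 0.87 on the log2 scale, or 1.83-fold (SE 0.11, adjusted p = 0.00294). Mutant 3 had the highest Etv4 and the lowest Etv5 of the mutants. Etv5 also stands in the lung epithelial marker list, whose median was -0.91, close to its own fall. The part of the epithelium in the fall of Etv5 was not tested.

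A further feature annotated to Etv5 gave the same direction. It read 10.66, 10.75 and 10.72 across the controls and 9.95, 9.81 and 9.67 across the mutants (-0.90 ± 0.08). The Etv4 value moved by 2.45 relative to the Etv5 value within arrays, with no overlap between groups. The exact two-sided permutation p was 0.1, the smallest these arrays can give. Without any single array this change stayed between 2.26 and 2.60.

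Etv1, the other member of this ETS subfamily, was moderately higher. It read 10.02, 10.08 and 10.02 across the controls and 10.53, 10.40 and 10.72 across the mutants. All mutants lay above all controls, at a difference of 0.51 ± 0.08 or 1.43-fold (adjusted p = 0.00881). Its other feature differed by 0.40 ± 0.08 and also passed when all features were tested (adjusted p = 0.0278).

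**Figure D3:**
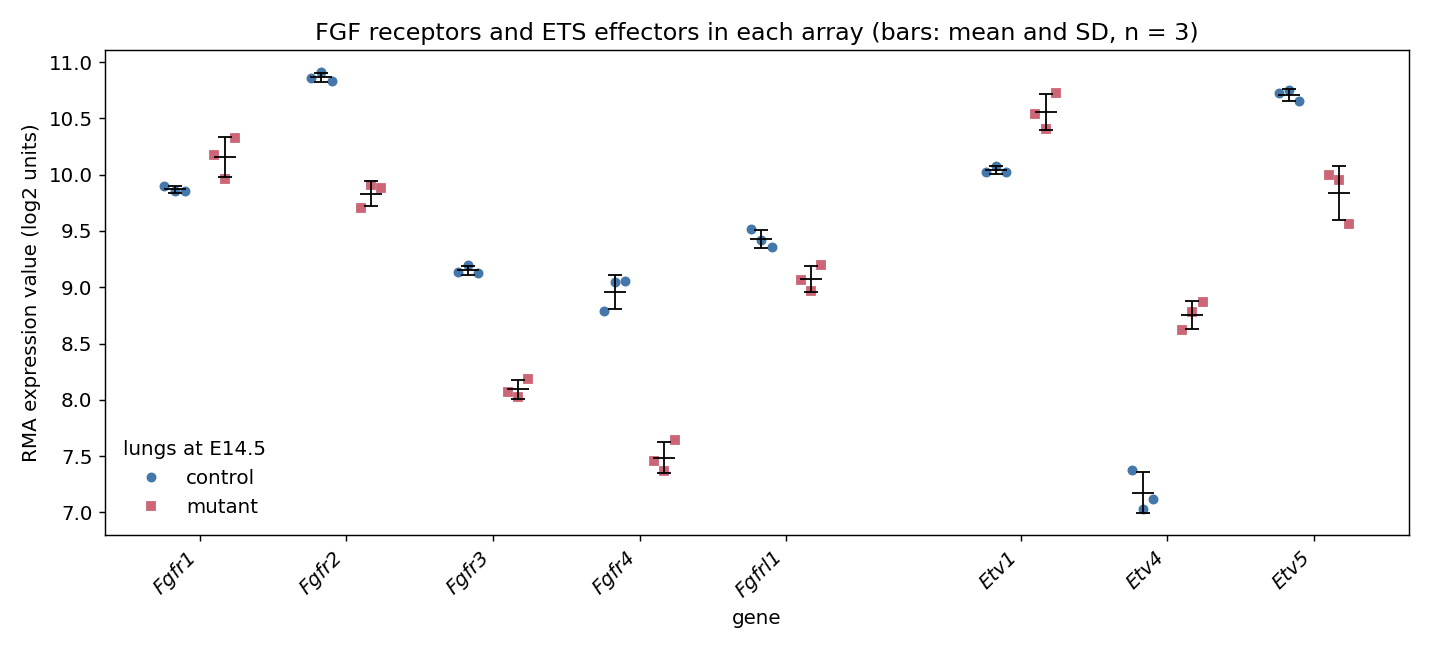
RMA log2 value of each array for the 5 receptor genes and 3 ETS factor genes, with circles for controls, squares for mutants and bars for the mean and SD (n = 3). Fgfr2, Fgfr3, Fgfr4, Fgfrl1 and Etv5 are lower and Etv1 and Etv4 higher in every mutant array. Fgfr1 did not pass the test.

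Among the secreted ligands, 2 rose and 2 fell of 18, or 22.2% in either direction against 7.66% of all genes. Fgf10, the mesenchymal ligand that directs branching, read 9.01, 8.96 and 9.00 across the controls and 9.68, 9.84 and 9.75 across the mutants. Its values were tight in both groups (SD 0.03 and 0.08). The rise was 0.77 ± 0.06 or 1.70-fold (adjusted p = 0.000299). Fgf8, a ligand of early patterning centres in the embryo, read 7.53, 7.27 and 7.36 across the controls and 8.01, 7.91 and 7.94 across the mutants. It was higher in every mutant, by 0.57 ± 0.08 or 1.49-fold (adjusted p = 0.0034).

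Fgf18, of the same ligand subfamily as Fgf8 and known in the lung mesenchyme and in cartilage, fell. It read 8.57, 8.66 and 8.67 across the controls and 7.49, 7.33 and 7.55 across the mutants. This was the largest change of any ligand, at -1.18 ± 0.07 or 2.26-fold (adjusted p = 8.08e-05). The 6 cartilage markers had a median of -0.10, with 0 past the threshold.

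Fgf1, a ligand that binds all FGF receptors, read 8.14, 8.14 and 8.01 across the controls and 7.58, 7.22 and 7.30 across the mutants. It fell by 0.73 on the log2 scale, or 1.66-fold (SE 0.10, adjusted p = 0.0035). Its subfamily partner Fgf2 read 8.69 ± 0.07 (SD, n = 3) in controls and 8.66 ± 0.21 in mutants, with overlapping groups and an interval of the difference from -0.27 to 0.21.

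Fgf9 and Fgf7, the other ligands best known in lung branching, did not pass. Fgf9 read 7.50, 7.54 and 7.60 across the controls and 7.27, 7.48 and 7.22 across the mutants, a difference of -0.22 (95% interval -0.40 to -0.04, adjusted p = 0.151). The groups did not overlap, and mutant 2 lay within 0.02 of the lowest control. Without it the difference was -0.30 and passed (adjusted p = 0.0225), again an omission that favours a change. Fgf7, made by mesenchyme, read 6.45, 6.42 and 6.38 across the controls and 6.06, 6.28 and 6.28 across the mutants, at -0.21 (adjusted p = 0.152). Relative to Fgf9 within arrays, Fgf10 moved by 0.99, with an exact two-sided permutation p of 0.1, the smallest possible here.

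The remaining secreted ligands were dim. Fgf5 had a difference of -0.23 with no overlap between groups, and did not pass (adjusted p = 0.0912). It passed when quantile normalization was applied again (adjusted p = 0.0424). Fgf3, Fgf4, Fgf6, Fgf15, Fgf16, Fgf17, Fgf20, Fgf21, Fgf22 and Fgf23 differed by between -0.10 and 0.08, with overlapping groups. Their control means lay between 5.12 (Fgf6) and 7.16 (Fgf22), below that of the median gene (7.34). With overlapping groups and 3 arrays in each, these ligands are not shown to be equal between the groups.

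The FGF homologous factors, which stay inside the cell and modulate sodium channels, gave 1 rise among 4 genes, against 3.84% higher among all genes. All 4 are dimmer than the median gene, and 5.24% of such genes passed in either direction. Fgf12 read 6.10, 6.15 and 6.14 across the controls and 6.77, 6.58 and 6.65 across the mutants. It was 0.54 ± 0.06 higher, or 1.45-fold (adjusted p = 0.00206), from a level below that of the median gene. Fgf11 read 6.96, 6.97 and 6.89 across the controls and 7.25, 7.06 and 7.71 across the mutants. The spread of the mutants was wide (SD 0.33), and the difference of 0.40 did not pass (adjusted p = 0.168) except without mutant 2, the lowest of them (0.54, adjusted p = 0.043). Fgf13 (0.18) and Fgf14 (-0.07) overlapped between groups.

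The feedback inhibitors all read higher on average in the mutants, 6 of 9 past the threshold, against 3.84% higher among all genes. Dusp6, the phosphatase that switches ERK off, read 10.08, 9.95 and 9.91 across the controls and 11.02, 10.77 and 10.65 across the mutants. It rose most of them, by 0.83 ± 0.10 or 1.78-fold (adjusted p = 0.00202). Spry4, a Sprouty inhibitor of RAS signalling, read 8.69, 8.46 and 8.70 across the controls and 9.38, 9.22 and 9.15 across the mutants. Its rise was 0.63 ± 0.09 or 1.55-fold (adjusted p = 0.00451).

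Spry1 read 9.24, 9.04 and 9.03 across the controls and 9.77, 9.52 and 9.71 across the mutants. The lowest mutant still lay above the highest control, and the difference was 0.57 ± 0.09 or 1.48-fold (adjusted p = 0.00719). Il17rd, which encodes the membrane inhibitor Sef, read 8.39, 8.35 and 8.30 across the controls and 8.72, 8.78 and 8.83 across the mutants. It was higher by 0.43 ± 0.06 or 1.34-fold (adjusted p = 0.00372), and its other feature gave 0.41 ± 0.07.

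Spry2, the Sprouty gene of the distal lung tips, changed less. It read 8.21, 8.02 and 8.07 across the controls and 8.26, 8.29 and 8.29 across the mutants. All mutants were above the controls, and control 1 came within 0.05 of them. The difference was 0.18 (95% interval 0.03 to 0.33) and did not pass (adjusted p = 0.166). Within arrays Spry2 moved by -0.45 relative to Spry4, with an exact two-sided permutation p of 0.1, the smallest possible. Spry3 (0.18) overlapped between groups.

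Of the Spred genes, which block the step from RAS to RAF, Spred1 and Spred3 passed with small differences. Spred1 read 10.30, 10.27 and 10.30 across the controls and 10.58, 10.55 and 10.50 across the mutants, at 0.25 ± 0.05 (adjusted p = 0.0269). Spred3 read 6.90, 6.98 and 7.01 across the controls and 7.23, 7.17 and 7.35 across the mutants, at 0.29 ± 0.07 (adjusted p = 0.0377). Neither call was firm. With each array centred on its median the adjusted p was 0.0659 for Spred1 and 0.0602 for Spred3. Spred1 did not pass without control 1, control 2, control 3 or mutant 1 (adjusted p up to 0.123), nor did Spred3 without these or mutant 3 (up to 0.146). Spred2 (0.13) overlapped between groups, and passed only without mutant 2, its lowest mutant (0.26, adjusted p = 0.0323).

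**Figure D4:**
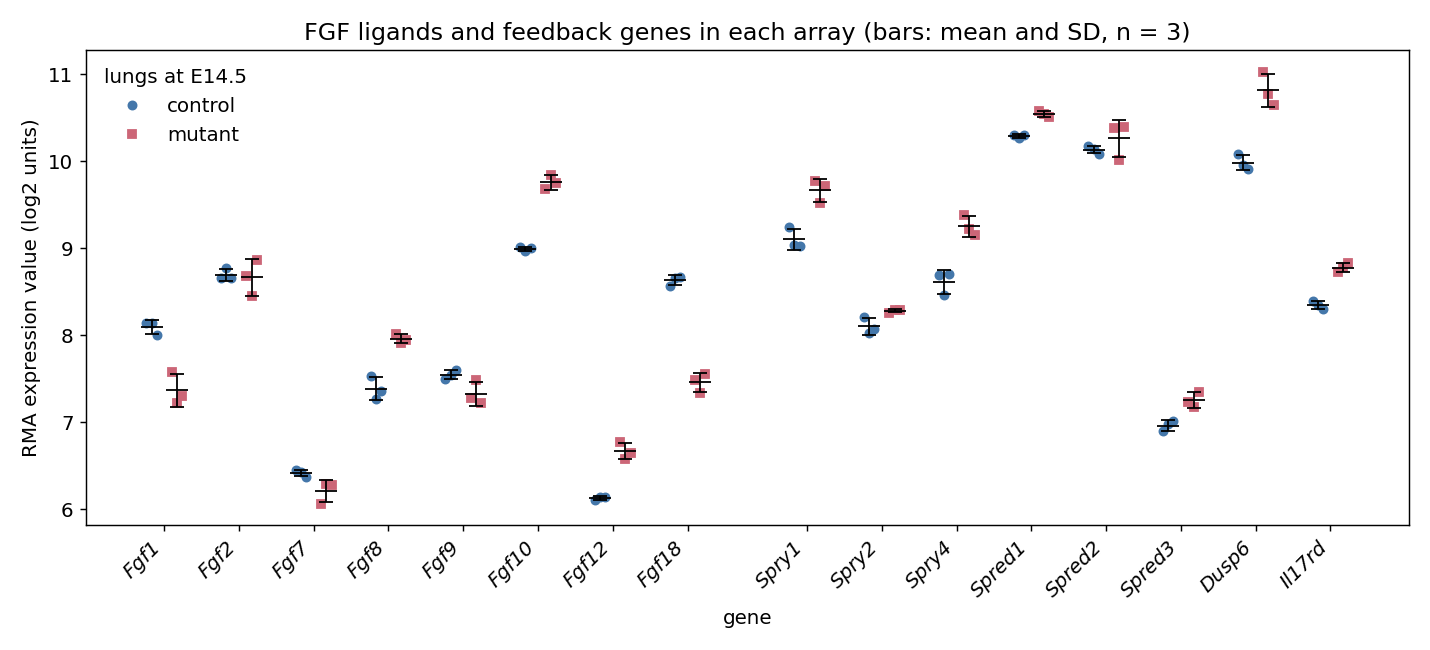
RMA log2 value of each array for 8 ligand or homologous factor genes and 8 feedback inhibitor genes, with circles for controls, squares for mutants and bars for the mean and SD (n = 3). Fgf10, Fgf8, Fgf12 and the feedback genes Spry1, Spry4, Dusp6 and Il17rd are higher in every mutant array, and Fgf1 and Fgf18 are lower.

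The coreceptor and adaptor genes showed no change past the threshold. The klotho genes Kl (-0.07) and Klb (-0.10), coreceptors of the endocrine FGFs, were dim at control means of 5.24 and 5.23. The docking adaptor Frs3 differed by -0.03 (95% interval -0.19 to 0.12). Of the FLRT genes, membrane proteins that bind FGF receptors, Flrt3 read 7.69, 7.58 and 7.75 across the controls and 8.10, 7.91 and 7.89 across the mutants. It was higher in every mutant, by 0.29, and did not pass (adjusted p = 0.0659). With the heart muscle median as a covariate it did (0.28, adjusted p = 0.0405). Flrt2 was high in mutant 1 (9.87 against 9.20 and 9.25 in mutants 2 and 3), the mutant with high heart muscle genes. The part of heart tissue in that value was not tested. Flrt1 (-0.02) and Fgfr1op2 (-0.09) overlapped between groups.

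Other genes of the pathway were read from 4 lists, written with earlier results of these data known. One list held the relay from receptor to ERK, together with phosphatases and kinases that act on or after ERK. With 23 genes measured of 30 listed, 3 were higher and 0 lower. This is 13% of the list, near the 10.1% called among genes brighter than the median gene, as all 23 are. All 3 act on or after ERK, and no measured gene between receptor and ERK passed. Dusp9, a further ERK phosphatase, was at 0.62 ± 0.07 (adjusted p = 0.00213), and Dusp5, a nuclear one, at 0.53 ± 0.05 (adjusted p = 0.000934). The ERK-activated kinase gene Rps6ka3 was at 0.38 ± 0.07, and its call ended without control 1, control 2 or control 3 (adjusted p up to 0.0585). The adaptor Grb2 (0.07), the phosphatase Ptpn11 (-0.02) and the kinase genes Braf (-0.01) and Map2k1 (0.15), chosen after their values were seen, did not pass. The largest difference among the 20 that did not pass was 0.27. Without mutant 2 the count was 5.

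Among 20 measured genes for extracellular modulators, 3 were higher and 5 lower, or 40% in either direction against 7.66% of all genes. Of the 20, 17 are brighter than the median gene, and 10.1% of all such genes passed. Sdc4, a heparan sulfate proteoglycan of the cell surface, was at -0.57 ± 0.07 (adjusted p = 0.00163). Hs6st2, which adds sulfate to heparan sulfate, was at 0.59 ± 0.10 (adjusted p = 0.0104), while Hs6st1, an enzyme of the same kind, was at -0.42 ± 0.10 (adjusted p = 0.0391). The adhesion gene Ncam1, whose protein binds FGF receptors, was at 0.47 ± 0.06 (adjusted p = 0.00208). Sdc4 and Ncam1 passed under each alternative tried. Hs6st1 did not pass without control 1, control 2, control 3, mutant 1 or mutant 2 (adjusted p up to 0.146), and Hs6st2 did not without control 3 (0.0563). Without control 1, control 2 and control 3 the count of 8 fell to 3, 3 and 4, and with replicate number as a block it was 5.

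In a list of 10 genes of the distal epithelium, written as genes linked to Fgf10 there, 5 were lower and 0 higher. This is 50% of the list, against 3.83% lower among all genes and 10.1% called in either direction among genes brighter than the median gene, as all 10 are. Among those past the threshold the largest falls were those of Sftpc (-5.58), the surfactant gene, and of Foxp2, which is also a targeted gene. Anxa4, an annexin, was at -0.95 ± 0.12 (adjusted p = 0.00302) and Sox9, the tip transcription factor, at -0.84 ± 0.07 (adjusted p = 0.000268). Shh, the hedgehog ligand of the epithelium, read 9.53, 9.34 and 9.45 across the controls and 7.89, 9.25 and 8.30 across the mutants. All mutants were below the controls and their spread was wide (SD 0.70). Its difference of -0.96 (95% interval -1.64 to -0.28) did not pass (adjusted p = 0.101). Bmp4 (-0.13), Id2 (-0.01), Mycn (0.17) and Shisa2 (0.06) did not pass either. These 5 genes are named outside the rule, after their values were seen. The epithelial markers given above moved the same way as this list. Sftpc, Sox9 and Id2 stand in both this list and the lung epithelial marker list, so the lists are not independent. The part of the epithelial markers was not tested. Of 10 genes listed as regulators of Fgf10, 1 was higher and 1 lower, or 20% in either direction against 7.66% of all genes. Of these 10, 9 are brighter than the median gene, and 10.1% of all such genes passed. Most of the listed regulators act in the mesenchyme, but Shh comes from the epithelium, and Shh and Bmp4 also stand in the distal epithelial list. Isl1, a homeobox factor, was at 1.41 ± 0.19 (adjusted p = 0.00402), and the forkhead gene Foxf1 at -0.38 ± 0.08 (adjusted p = 0.0226). The call of Foxf1 ended without control 1, control 2 or control 3 (adjusted p up to 0.0989), which left a count of 1, and without mutant 2 the count was 5. The hedgehog receptor gene Ptch1 was at -0.56, with all mutants below the controls, and did not pass (adjusted p = 0.108). The ligand gene Wnt2 (0.33) and the T-box activators of Fgf10, Tbx4 (0.04) and Tbx5 (0.01), did not pass either. These 4 genes were chosen after their values were seen.

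Since the deleted genes encode forkhead factors, the 250 bases before each annotated start were searched on both strands for the forkhead motif GTAAACA, the Foxp-type motif TATTTAT and the ETS motif CCGGAAG. Promoters came from RefSeq (GRCm38.p6) and covered 35 of the 46 genes, 14 of them among those past the threshold. GTAAACA or its reverse complement TGTTTAC was found in 2 of the 35 genes (5.71%), Fgf10 and Etv5, and in 3.18% of all genes tested that have a promoter there. In Fgf10, which rose, TGTTTAC begins 11 bases before the start on the strand of the gene. In Etv5, which fell, GTAAACA begins 183 bases before 1 of its 2 annotated starts. TATTTAT was found in 1 gene, Fgf7 (2.86%, against 5.12% of all genes), and CCGGAAG in 1 gene, Fgfrl1 (2.86% against 10.7%). The matches among genes past the threshold are printed here within windows of the strand of the gene, with the motif in capitals. The windows are chr13:118714638-118714698 (+ strand) for Fgf10, chr16:22439697-22439803 (- strand) for Etv5 and chr5:108694131-108694228 (+ strand) for Fgfrl1.
Fgf10: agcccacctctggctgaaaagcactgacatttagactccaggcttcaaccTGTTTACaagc
Etv5: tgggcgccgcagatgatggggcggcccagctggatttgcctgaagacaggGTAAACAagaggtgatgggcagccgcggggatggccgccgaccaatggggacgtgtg
Fgfrl1: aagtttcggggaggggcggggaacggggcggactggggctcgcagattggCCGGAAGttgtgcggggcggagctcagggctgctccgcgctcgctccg
The genes with a forkhead match moved in opposite directions, and a match in letters is a description of the window, not evidence of binding.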

How the data were processed

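Each array was deposited as log2 values that the authors computed with RMA, which subtracts background, normalizes arrays to each other and summarises probes. The tools oligo, RMA and limma are listed, with no version, in the submitters' processing notes. Sources used here give neither the RMA settings nor a genome build. Whether the embryos shared litters is not stated, so p-values measure the spread between these samples. Of 35556 features, 21797 carried 1 gene symbol, 1613 several and 12146 were unnamed here. A gene was represented by its feature with the highest mean. Mutant and control arrays were compared with limma 3.58.1 in R 4.3.3 (all 6 arrays, genotype only, two-sided, Benjamini-Hochberg over 19946 genes, threshold 0.05). The precision is set by 3 arrays per group. The fit was tested on simulated data for 19946 genes and recovered 60 of 67 genes changed 1.5-fold. Changes were placed only in genes that were not among the dimmest, with the same spread in both groups. That recovery therefore does not describe the dimmest genes, nor the wider spread of the mutants. The members, gene lists and tests were chosen with earlier results of these data known. Every gene past the threshold is named with its array values, and up to 4 per pathway list. Alternatives were renormalization, centring, a filter on dim genes, other feature rules, moderation with a trend (statmod 1.5.0), a replicate block, a heart muscle covariate and each array left out. No protein sequences were used here.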

Additional observations from a re-analysis of the deposited data

How the results depend on the processing

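Of the 18 FGF genes past the threshold, 15 passed it under every alternative fit tried, and Fgfrl1, Spred1 and Spred3 did not. The count of higher genes (11) was 4 when a change of at least 1.5-fold was also required, and that of lower genes was 6. With arrays left out in turn, the count lay between 9 and 14 for higher and between 6 and 8 for lower genes, and over all genes the count of 1528 lay between 774 and 1745. Left-out arrays gave 2 to 5 calls in the relay list, 3 to 7 among extracellular modulators and 1 to 5 among regulators of Fgf10. With replicate number as a block, 15 of the 18 genes passed (9 higher, 6 lower), 5 extracellular modulators passed, and 1 regulator of Fgf10 did, as also when the features of a gene were averaged (1). The numbers were not taken to pair the samples, since deviations of same-numbered arrays correlated at -0.07, 0.05 and 0.15. Sign changes occurred for 9 genes that had not passed. With arrays left out, the difference ran from -0.131 to 0.080 for Fgf2, -0.121 to 0.045 for Fgf17, -0.0922 to 0.048 for Fgf15, -0.0725 to 0.105 for Fgf21, -0.0669 to 0.0659 for Fgf23, -0.181 to 0.0192 for Fgf14, -0.0744 to 0.0056 for Frs3, -0.0832 to 0.0589 for Flrt1 and -0.204 to 0.132 for Flrt2. Under quantile normalization, centring and the heart covariate Fgf21 was at -0.0184, -0.0224 and -0.0131 and Flrt2 at -0.0094, -0.0111 and -0.0323. The cause of these shifts was not tested. Signal over background could not be judged without detection calls.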
